A study of Mus musculus with 18 samples.

Results

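The digestive enzymes of the enterocyte brush border were followed in the ileal epithelium of suckling mice given a probiotic. The set held 9 listed genes, Lct, Sis, Treh, Anpep, Alpi, Akp3, Dpp4, Mme and Enpep, out of 12804 genes with a detected probe on the array. Every probe carrying one of these symbols was collected, 14 in all. Each gene was then represented by its brightest probe among those with a detection p under 0.05 on at least 3 of 18 arrays. That rule left 7 genes measured, Lct, Sis, Treh, Anpep, Alpi, Dpp4 and Enpep, and all 7 were detected on 18 of 18 arrays. Akp3 and Mme had no probe that passed.

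The arrays came from 18 pups of the outbred CD-1 stock, 3 in each of 6 groups. The groups were Lactobacillus reuteri ATCC PTA 6475, L. reuteri DSM 17938 and phosphate-buffered saline (PBS), each sampled 24 h and 4 h after 1 gavage into the stomach. L. reuteri is a lactic acid bacterium of the gut, and each dose held 1e+08 colony-forming units in 50 uL of PBS, while PBS pups received 50 uL of PBS alone. Pups sampled at 24 h were 12 days old and pups sampled at 4 h were 11 days old, so time after gavage and age cannot be told apart. Males and females were used, and the sex of each pup was not used here. Epithelium was cut by laser from 24 sections per animal, taken from the last 4 cm of the ileum, and its RNA was read on single-colour Illumina bead arrays. In such bulk RNA, fewer cells of a type and less RNA per cell cannot be told apart. Each array belonged to a separate pup, so that p-values measure the spread between pups.

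The captured material carried enterocyte markers, with 13 of 15 listed genes detected, Epcam, Cdh1 and Vil1 among them. Fabp1 and Fabp2 of that list had probes on the array but were not detected. Markers of other cells were also present, including 8 of 8 smooth muscle genes, 10 of 10 fibroblast genes, 8 of 13 lymphocyte genes and 5 of 7 Paneth cell genes. Cd8a, Gzmb and Ptprc of the lymphocyte list and Itgam and Fcer1g of the myeloid list were not detected. Mean array signal ranged between 210.3 and 459.7, with 20284 to 22848 probes detected out of 45281 on an array. Levels below are log2 signals after background correction and quantile normalisation, and differences are differences of these log2 levels. Levels of different probes are not set against each other.

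Brush border hydrolases sit in the microvillus membrane with their active sites facing the gut lumen, where they finish the digestion of sugars and peptides. Lactase splits milk sugar and is abundant in suckling mammals, whereas sucrase-isomaltase and trehalase are low before weaning and rise with the change to solid food. Aminopeptidase N, aminopeptidase A, dipeptidyl peptidase 4 and neprilysin trim peptides at the cell surface, and intestinal alkaline phosphatases remove phosphate groups, including those of bacterial lipopolysaccharide.

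The regulation of lactase has been studied through its proximal promoter, where the homeobox factor Cdx2 and GATA factors act. For Lct and the 3 measured peptidases, Anpep, Dpp4 and Enpep, the 250 bases before the annotated starts of these 4 genes are shown as a description. Whether these letters bear on how the genes varied among pups was not tested. The sequences are from RefSeq on GRCm38.p6, read in the direction of the gene, 5′ to 3′. All 4 genes lie on the minus strand, Lct at chr1:128328319-128328568, Anpep at chr7:79848211-79848460, Dpp4 at chr2:62412232-62412481 and Enpep at chr3:129332750-129332999. Capitals mark matches, on either strand, to 6 motifs: TTTAT and TTTAC (Cdx type), AGATAA and TGATAA (for GATA factors), GGGCGG (Sp1 type) and CAAAGTCCA (Hnf4 type).
Lct: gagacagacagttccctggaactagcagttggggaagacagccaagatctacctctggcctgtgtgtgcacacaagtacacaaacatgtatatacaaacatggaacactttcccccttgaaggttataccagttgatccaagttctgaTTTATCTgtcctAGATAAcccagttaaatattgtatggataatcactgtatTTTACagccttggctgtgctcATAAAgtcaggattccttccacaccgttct
Anpep: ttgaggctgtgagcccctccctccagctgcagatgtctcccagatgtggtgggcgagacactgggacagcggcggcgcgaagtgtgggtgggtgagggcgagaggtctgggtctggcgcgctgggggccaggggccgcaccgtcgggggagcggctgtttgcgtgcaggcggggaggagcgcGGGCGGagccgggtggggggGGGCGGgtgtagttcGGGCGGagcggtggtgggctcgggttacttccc
Dpp4: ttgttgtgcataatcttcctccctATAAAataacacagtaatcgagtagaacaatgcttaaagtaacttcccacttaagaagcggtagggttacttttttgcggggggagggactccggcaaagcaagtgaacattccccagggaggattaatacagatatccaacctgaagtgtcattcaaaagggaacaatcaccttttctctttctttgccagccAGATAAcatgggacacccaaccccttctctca
Enpep: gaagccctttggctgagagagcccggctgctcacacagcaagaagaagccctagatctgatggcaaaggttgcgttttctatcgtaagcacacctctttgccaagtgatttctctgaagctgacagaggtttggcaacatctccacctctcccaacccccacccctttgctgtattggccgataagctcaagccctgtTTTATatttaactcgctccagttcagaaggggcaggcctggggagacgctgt
The Lct window held TTTAT at 102 to 98 bases before the start, TTTAC at 51 to 47 bases and AGATAA at 90 to 85 bases. It also held AGATAA on the opposite strand at 101 to 96 bases, overlapping the first TTTAT, and TTTAT on the opposite strand at 30 to 26 bases. Dpp4 held AGATAA at 32 to 27 bases and TTTAT on the opposite strand at 226 to 222 bases, and Enpep held TTTAT at 52 to 48 bases. Anpep held GGGCGG 3 times, nearest at 33 to 28 bases, and its window was 72.8% G and C against 42.8% for Lct. Alpi, whose window is not printed, held TTTAT at 33 to 29 bases and CAAAGTCCA at 19 to 11 bases, and Treh held CAAAGTCCA on the opposite strand.

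Short motifs of this kind are common. Of 32851 mouse promoter windows of the same length, 37.3% held TTTAT, 28.3% TTTAC, 9.99% AGATAA, 7.94% TGATAA, 32.7% GGGCGG and 0.384% CAAAGTCCA. Among the 9 hydrolases, TTTAT was found for 5, TTTAC for 1, AGATAA for 2, TGATAA for 0, GGGCGG for 2 and CAAAGTCCA for 2. A match describes letters and does not show that a factor binds.

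Of the 14 probes, 7 stood for a gene and 7 did not. Sis was read by probe ILMN_3139952, detected on 18 arrays, while its other probe ILMN_2746320 was detected on 0. Dpp4 was read by ILMN_2615096, detected on 18 arrays, and its other probe ILMN_1239782 was detected on 0. Akp3, a second mouse alkaline phosphatase known from the duodenum, had 1 probe, detected on 0 arrays. Mme, which encodes neprilysin, had 4 probes, of which ILMN_2863362 was detected on 1 array, replicate 2 of the ATCC PTA 6475 group at 24 h, with a detection p of 0.0449, and the other 3 on 0. No level or difference is given for Akp3 or Mme.

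**Figure D1:**
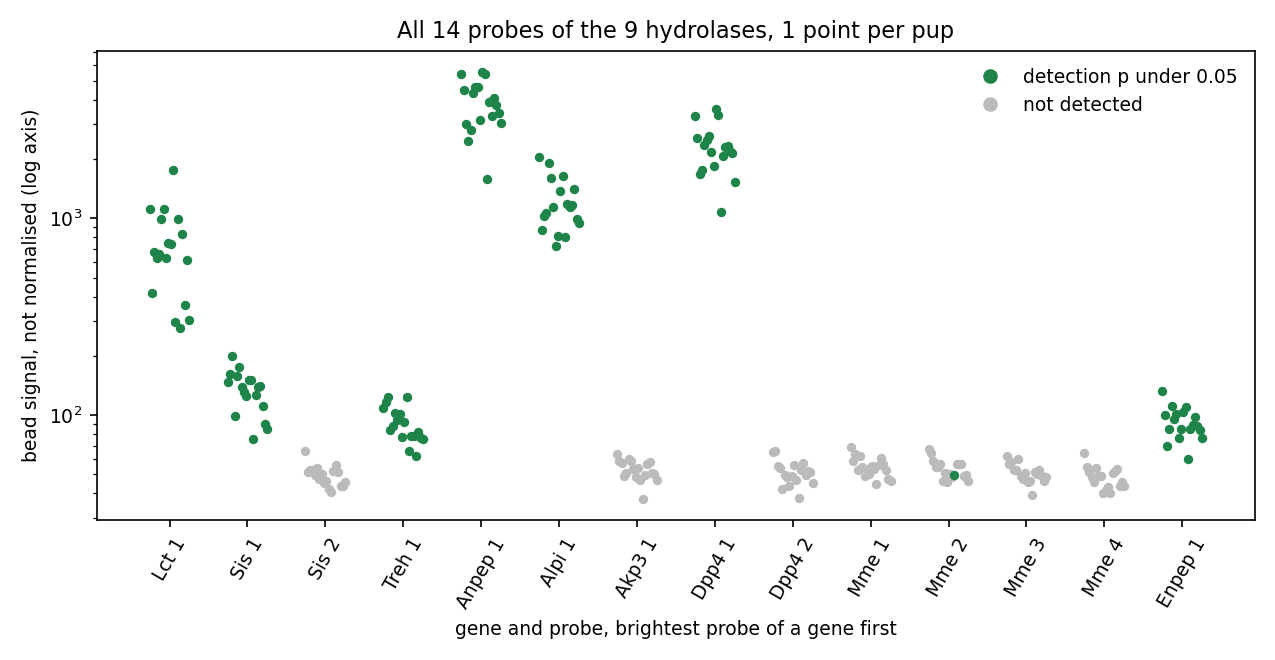
Bead signal before normalisation, on a log axis, for each of the 14 probes, with 1 point per pup and green points for a detection p under 0.05. The 7 probes that stand for a gene are green on all 18 arrays, and the other 7 are grey except for 1 point of an Mme probe; heights of different probes cannot be compared.

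By limma with Benjamini-Hochberg adjustment, 0 of 16835 features (0%) passed an adjusted p of 0.05 in the 14 comparisons, and so 0 of 7 hydrolases did. Before adjustment, between 2.22% and 15.1% of features had a p under 0.05 in a comparison, and hydrolases had such a p in 11 of 98 tests, all of them of Lct, Treh or Alpi. Results below are therefore measured differences with their intervals, none of which passed the adjusted threshold. With 3 pups on each side, the smallest two-sided p of an exact permutation test is 0.1.

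Lct, the lactase gene, had the largest SD within groups among the 7 hydrolases. At 24 h its level was 9.44, 8.95 and 8.53 in ATCC PTA 6475 pups, 9.27, 10.61 and 8.48 in DSM 17938 pups, and 9.17, 9.11 and 9.42 in PBS pups. The DSM 17938 pups at 24 h included the highest Lct level of the study, and the ranges of the 3 treatments overlapped. At 4 h Lct stood at 9.33, 9.46 and 9.69 in ATCC PTA 6475 pups, at 8.30, 9.22 and 8.03 in DSM 17938 pups, and at 9.62, 9.70 and 10.15 in PBS pups. All 3 DSM 17938 pups lay below every PBS pup and below every ATCC PTA 6475 pup of that time, whereas the ATCC PTA 6475 and PBS ranges overlapped.

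The mean Lct level was 8.52 ± 0.63 in DSM 17938 pups and 9.82 ± 0.29 in PBS pups at 4 h (SD, n = 3 each), a difference of -1.31 with a standard error of 0.41 and a 95% interval of -2.17 to -0.45. This is a level 2.48-fold lower with DSM 17938. The unadjusted p was 0.00518 by limma, among the lowest 0.333% of all features in that comparison, and the adjusted p was 1. The exact permutation p was 0.1, the smallest the design allows. The difference lay between -1.66 and -1.06 when any 1 of these 6 pups was left out.

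With ATCC PTA 6475 at 4 h, Lct averaged 9.49 ± 0.18 against 9.82 ± 0.29 with PBS (SD, n = 3 each), a difference of -0.33 with an interval of -1.19 to 0.53. Set against each other at 4 h, ATCC PTA 6475 pups were 0.97 higher than DSM 17938 pups, with a standard error of 0.41, an unadjusted p of 0.0284 and an adjusted p of 1 by limma. Taking both strains together, Lct averaged 9.00 with L. reuteri and 9.82 with PBS at 4 h, a difference of -0.82. Its exact permutation p over 6 against 3 pups was 0.0476, where the smallest possible is 0.0238, and its adjusted p by limma was 1.

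At 24 h the Lct differences from PBS were smaller than their standard error of 0.41. They were -0.26 for ATCC PTA 6475, with an interval of -1.12 to 0.60, and 0.22 for DSM 17938, with an interval of -0.64 to 1.08. Without replicate 2 of the DSM 17938 group, the pup at 10.61, the DSM 17938 difference at 24 h was -0.36.

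The change in the Lct difference between the times was tested directly. For DSM 17938 the difference from PBS was 1.53 higher at 24 h than at 4 h, with a standard error of 0.57, an interval of 0.31 to 2.74, an unadjusted p of 0.0169 and an adjusted p of 1 by limma. Leaving out 1 pup moved this value between 0.95 and 2.01, the lower end being that without replicate 2 of the DSM 17938 group at 24 h. For ATCC PTA 6475 the corresponding change was 0.07, with an interval of -1.14 to 1.29.

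The levels behind that change were read by treatment. In DSM 17938 pups Lct averaged 9.45 ± 1.08 at 24 h and 8.52 ± 0.63 at 4 h, a difference of 0.94 with overlapping ranges (unadjusted p = 0.0346, adjusted p = 1 by limma). Without replicate 2 of the DSM 17938 group at 24 h this was 0.36. In PBS pups it averaged 9.23 ± 0.16 at 24 h and 9.82 ± 0.29 at 4 h, a difference of -0.59 with the ranges of the 2 times apart (unadjusted p = 0.164, adjusted p = 1 by limma). In ATCC PTA 6475 pups it averaged 8.97 ± 0.46 at 24 h and 9.49 ± 0.18 at 4 h, a difference of -0.52 (SD, n = 3 in each group).

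Ordered by mean, the groups ran DSM 17938 at 4 h, ATCC PTA 6475 at 24 h, PBS at 24 h, DSM 17938 at 24 h, ATCC PTA 6475 at 4 h and PBS at 4 h, the highest. The step between ATCC PTA 6475 and PBS at 4 h, 0.33, exceeded the larger SD of that pair, and the remaining steps did not. Over all 7 hydrolases, 1 of 35 such steps between neighbouring groups exceeded the larger SD of its pair, this one, and 0 did so with ranges apart.

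**Figure D2:**
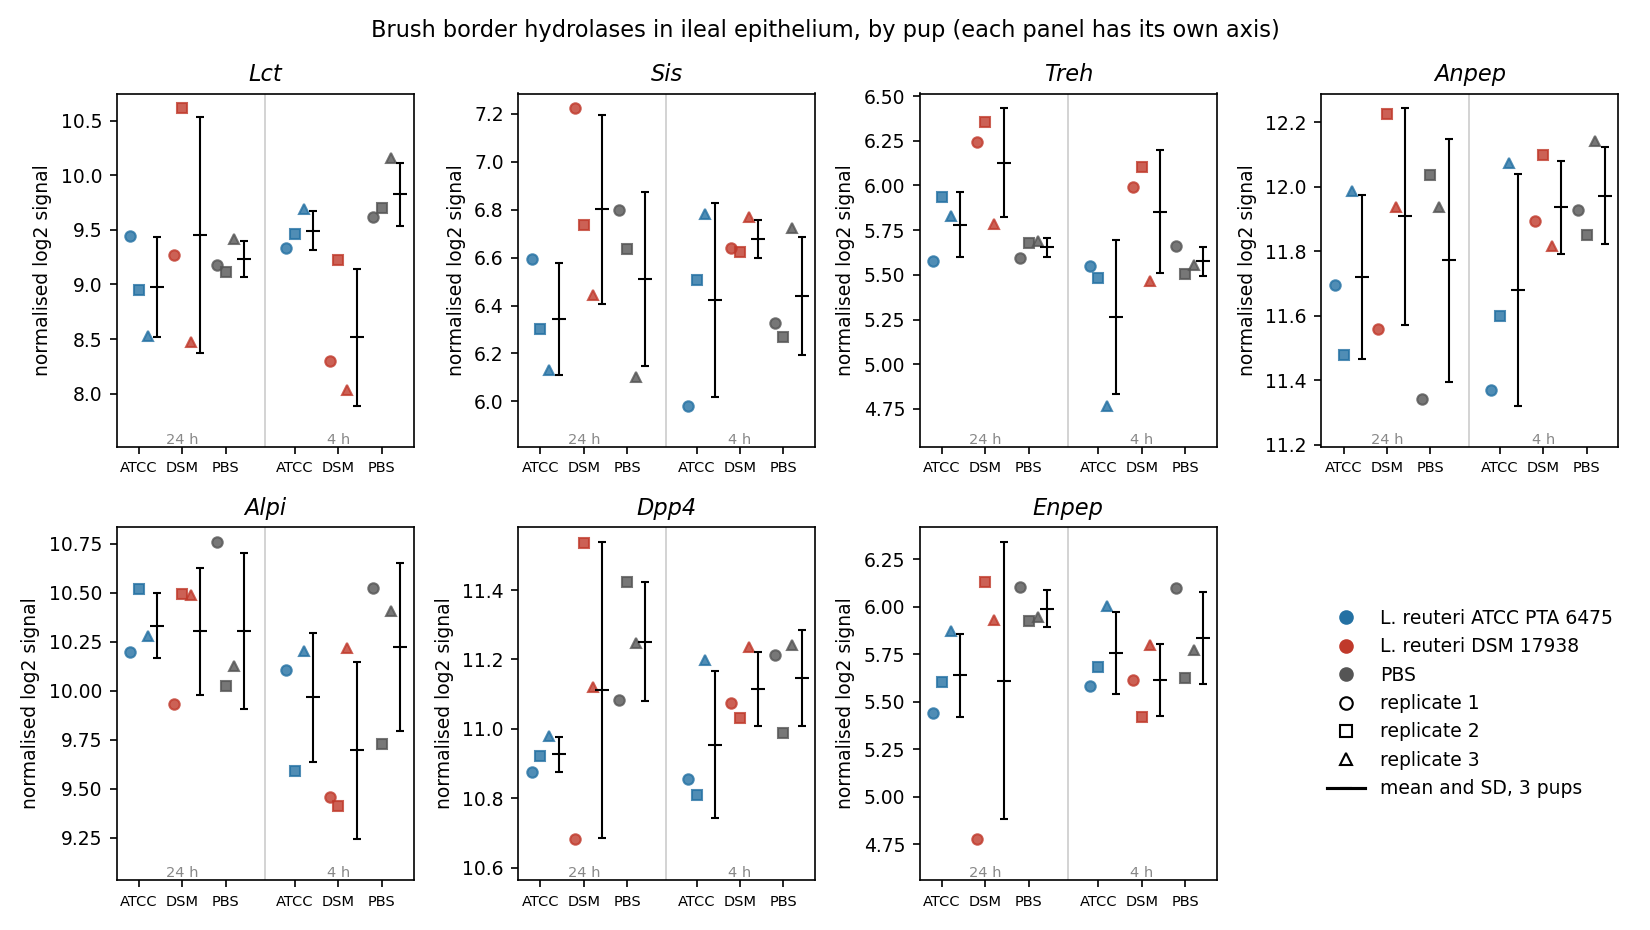
Normalised log2 signal of each measured hydrolase in every pup, with 24 h on the left and 4 h on the right of each panel, point shape for the replicate number and black bars for the mean and SD of 3 pups. For Lct at 4 h, the 3 DSM 17938 pups sit between 8.03 and 9.22, below all PBS pups at 9.62 to 10.15.

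Over all 18 pups Lct ranged between 8.03 and 10.61, a 5.99-fold span. Its SD within groups was 0.56, above that of 96.3% of features. The within-group SD of the other 6 hydrolases lay between 0.22 for Dpp4, at the 47.3 percentile, and 0.36 for Alpi, at the 87.2 percentile. Lct was far above detection on every array, with bead signals of 278.2 to 1767.1.

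Levels of other cell types' markers were set beside the 4 h difference in Lct. The log2 of the summed enterocyte signal was 15.90 to 16.13 in DSM 17938 pups and 15.95 to 16.21 in PBS pups. Crypt and proliferation genes summed to 13.80 to 13.95 with DSM 17938 and 13.72 to 13.84 with PBS, and smooth muscle genes to 15.87 to 16.05 with DSM 17938 and 15.68 to 16.30 with PBS. Paneth cell genes, 5 of 7 measured, summed to 12.56 to 13.79 with DSM 17938 and 11.51 to 13.03 with PBS. Ranges of these 4 sums overlapped between the groups. Gene by gene, 5 of 5 Paneth cell genes lay above PBS with DSM 17938, with a median difference of 0.51. So did 8 of 10 goblet cell genes, with a median of 0.16. Of these goblet cell genes 1 had an unadjusted p under 0.05 by limma, where 3.34% of all features did. Enterocyte genes lay above PBS for 9 of 13 (median 0.099) and crypt and proliferation genes for 15 of 21. Fibroblast genes did for 7 of 10 and enteroendocrine genes for 7 of 9. Of all features, 48.7% lay below PBS. All 8 smooth muscle genes lay below PBS, with a median of -0.085. Lymphocyte genes lay above PBS for 4 of 8, myeloid genes for 4 of 9 and enteric nerve genes for 1 of 5. An unadjusted p under 0.05 by limma was also reached by 1 fibroblast and 1 lymphocyte gene above PBS. Among enterocyte genes 1 above and 1 below PBS reached it. The part of these cell types in the Lct difference was not tested.

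Sis, which encodes sucrase-isomaltase, was detected on every array although the pups were not yet weaned. Its level over the 18 pups ranged between 5.98 and 7.22, with a median of 6.61. At 24 h it averaged 6.34 ± 0.23 with ATCC PTA 6475, 6.80 ± 0.39 with DSM 17938 and 6.51 ± 0.36 with PBS. At 4 h it averaged 6.42 ± 0.41 with ATCC PTA 6475, 6.68 ± 0.08 with DSM 17938 and 6.44 ± 0.25 with PBS (SD, n = 3 in each). Differences from PBS were -0.17 at 24 h and -0.017 at 4 h for ATCC PTA 6475, and 0.29 at 24 h and 0.24 at 4 h for DSM 17938. All 4 intervals included 0, and the groups overlapped in each.

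Treh, which encodes trehalase, had DSM 17938 and PBS levels apart at 24 h and overlapping at 4 h. At 24 h its level was 5.58, 5.93 and 5.83 in ATCC PTA 6475 pups, 6.24, 6.36 and 5.78 in DSM 17938 pups, and 5.59, 5.68 and 5.69 in PBS pups. All 3 DSM 17938 pups lay above every PBS pup. The means were 6.13 ± 0.30 with DSM 17938 and 5.65 ± 0.05 with PBS (SD, n = 3 each), a difference of 0.47 with a standard error of 0.21, a 95% interval of 0.03 to 0.92, an unadjusted p of 0.0379 and an adjusted p of 0.911 by limma.

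At 4 h Treh stood at 5.55, 5.48 and 4.77 in ATCC PTA 6475 pups, at 5.99, 6.10 and 5.46 in DSM 17938 pups, and at 5.66, 5.51 and 5.55 in PBS pups. The lowest of these, replicate 3 of the ATCC PTA 6475 group, had a detection p of 0.0459, close to the limit of detection. Differences from PBS at 4 h were -0.31 for ATCC PTA 6475 and 0.28 for DSM 17938, both with intervals that included 0. Without that replicate 3 the ATCC PTA 6475 difference was -0.061. The DSM 17938 difference lay between 0.15, without replicate 2 of that group, and 0.47, without its replicate 3, which lay below every PBS pup. Strain against strain at 4 h, ATCC PTA 6475 pups averaged 5.27 ± 0.43 and DSM 17938 pups 5.85 ± 0.34 (SD, n = 3 each), a difference of -0.59 with a standard error of 0.21, an unadjusted p of 0.0125 and an adjusted p of 1 by limma, and with overlapping ranges. Without the pup near the limit of detection it was -0.34.

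Between the times, Treh was higher at 24 h in ATCC PTA 6475 pups, by 0.52, with a standard error of 0.21, ranges apart, an unadjusted p of 0.0255 and an adjusted p of 0.83 by limma. Without replicate 3 of the ATCC PTA 6475 group at 4 h this was 0.27. Over the 3 treatments together the Treh level was 0.29 higher at 24 h than at 4 h (unadjusted p = 0.0293, adjusted p = 0.828 by limma). Among PBS pups the SD of Treh was 0.05 at 24 h and 0.08 at 4 h, narrower than in any L. reuteri group, where it lay between 0.18 and 0.43. The group at 0.43, ATCC PTA 6475 at 4 h, held the pup close to the limit of detection. Other hydrolases went the other way. At 24 h the SD was 0.38 with PBS and 0.25 with ATCC PTA 6475 for Anpep, and 0.40 and 0.17 for Alpi. A difference in spread between treatments was not tested.

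Among the peptidases, Anpep encodes aminopeptidase N, which removes single residues from the amino end of peptides. Its level ranged between 11.34 and 12.23 over the 18 pups. At 24 h it averaged 11.72 ± 0.25 with ATCC PTA 6475, 11.91 ± 0.34 with DSM 17938 and 11.77 ± 0.38 with PBS. At 4 h it averaged 11.68 ± 0.36 with ATCC PTA 6475, 11.94 ± 0.14 with DSM 17938 and 11.97 ± 0.15 with PBS (SD, n = 3 in each). Its differences from PBS ran between -0.29, for ATCC PTA 6475 at 4 h, and 0.14, for DSM 17938 at 24 h, and all 4 intervals included 0.

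Dpp4 encodes dipeptidyl peptidase 4, which cuts dipeptides from peptides with proline or alanine near the amino end, incretin hormones among them. At 24 h its level was 10.88, 10.92 and 10.98 in ATCC PTA 6475 pups, 10.68, 11.53 and 11.12 in DSM 17938 pups, and 11.08, 11.42 and 11.25 in PBS pups. The 3 ATCC PTA 6475 pups lay close together and below every PBS pup, while the DSM 17938 pups held both the lowest and the highest Dpp4 value of the study. The difference between ATCC PTA 6475 at 10.93 ± 0.05 and PBS at 11.25 ± 0.17 (SD, n = 3 each) was -0.33, with a standard error of 0.18, an interval of -0.70 to 0.05, an unadjusted p of 0.0864 and an adjusted p of 0.41 by limma. At 4 h Dpp4 differed from PBS by -0.19 with ATCC PTA 6475 and by -0.032 with DSM 17938, with overlapping ranges.

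Enpep encodes aminopeptidase A, which removes acidic residues and is known for converting angiotensin II. At 24 h its level was 5.44, 5.60 and 5.87 in ATCC PTA 6475 pups, 4.78, 6.13 and 5.93 in DSM 17938 pups, and 6.10, 5.93 and 5.94 in PBS pups. All 3 ATCC PTA 6475 pups lay below every PBS pup, and the DSM 17938 pups again held the lowest and the highest values of the study. The lowest, replicate 1, had a detection p of 0.0438 and was also the pup with the lowest Dpp4 level.

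The Enpep difference from PBS at 24 h was -0.35 for ATCC PTA 6475, with an interval of -0.90 to 0.20, and -0.38 for DSM 17938, with an interval of -0.93 to 0.17. Without replicate 1 of the DSM 17938 group the second of these was 0.038. At 4 h Enpep differed from PBS by -0.077 with ATCC PTA 6475 and by -0.22 with DSM 17938, with overlapping ranges.

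Alpi encodes an intestinal alkaline phosphatase. At 4 h its level was 10.11, 9.59 and 10.20 in ATCC PTA 6475 pups, 9.46, 9.41 and 10.22 in DSM 17938 pups, and 10.53, 9.73 and 10.41 in PBS pups. Replicates 1 and 2 of the DSM 17938 group were the 2 lowest of the study, but replicate 3 lay within the PBS range. The difference for DSM 17938, 9.70 ± 0.45 against 10.22 ± 0.43 with PBS (SD, n = 3 each), was -0.53, with a standard error of 0.27, an interval of -1.10 to 0.04 and an unadjusted p of 0.0682. For ATCC PTA 6475 it was -0.25.

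At 24 h Alpi averaged 10.33 ± 0.17 with ATCC PTA 6475, 10.30 ± 0.32 with DSM 17938 and 10.30 ± 0.40 with PBS (SD, n = 3 in each), and the difference from PBS was 0.027 for ATCC PTA 6475 and 0.00038 for DSM 17938. Compared between the times, the Alpi level was 0.61 higher at 24 h than at 4 h in DSM 17938 pups (unadjusted p = 0.0378) and 0.35 higher over the 3 treatments together (unadjusted p = 0.0376). The adjusted p of these by limma was 1 and 0.865.

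**Figure D3:**
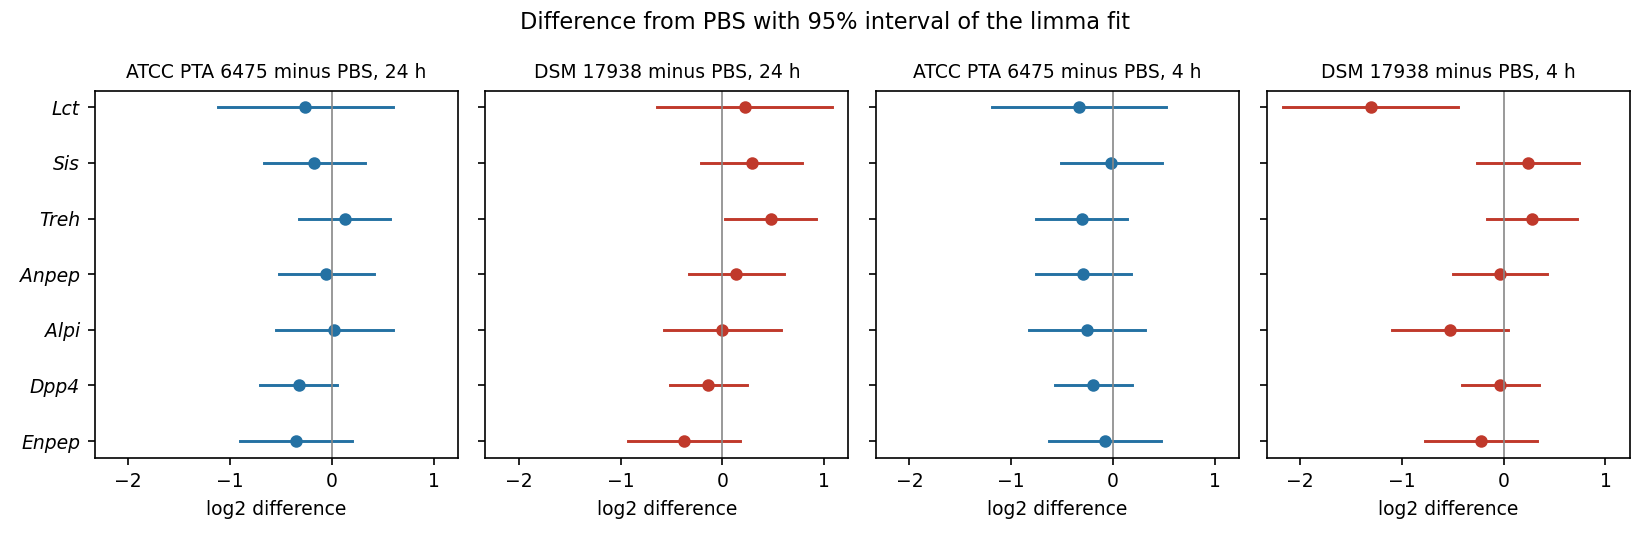
Log2 difference from PBS of each measured hydrolase for each strain at 24 h and at 4 h, with dots for the estimate and lines for its 95% interval from limma. The interval of Lct for DSM 17938 at 4 h, -2.17 to -0.45, and that of Treh for DSM 17938 at 24 h, 0.03 to 0.92, leave out 0, and all the others include it.

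Counts over the 7 measured hydrolases were read against the whole table. With DSM 17938 at 4 h, 5 of 7 lay below PBS, against 48.7% of all 16835 features. In that comparison 1, Lct, had groups that did not overlap, where 8.05% of features did not overlap and 3.34% had an unadjusted p under 0.05. With ATCC PTA 6475 at 4 h, 7 of 7 lay below PBS, against 49.8% of all features, and 0 had groups apart, where 7.7% of all features did. The median difference of the 7 in that comparison was -0.25, and that of all features 0.00057. Markers of some other cell types lay mostly the opposite way in that comparison. Lymphocyte genes lay above PBS for 8 of 8 measured, with a median of 0.75 and 5 at an unadjusted p under 0.05, where 3.36% of features had such a p. Smooth muscle genes lay above PBS for 8 of 8 (median 0.16), fibroblast genes for 9 of 10 (median 0.24) and Paneth cell genes for 5 of 5 (median 0.39). The summed Paneth cell signal was 13.14 to 13.53 with ATCC PTA 6475 and 11.51 to 13.03 with PBS, with ranges apart. The summed lymphocyte signal, 12.19 to 12.59 against 12.24 to 12.42 with PBS, overlapped, as did the smooth muscle and fibroblast sums. Enterocyte genes lay below PBS for 10 of 13 (median -0.12) and crypt and proliferation genes for 12 of 21 (median -0.068). Goblet cell genes did for 6 of 10 and myeloid genes for 6 of 9 (median -0.041 each). Enteroendocrine genes lay above PBS for 5 of 9 and enteric nerve genes for 3 of 5. Their part in the hydrolase differences was not tested.

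With DSM 17938 at 24 h, 2 of 7 lay below PBS, against 48.3% of all features, and 1, Treh, had groups apart, where 9.04% did, and an unadjusted p under 0.05, where 5.01% did. With ATCC PTA 6475 at 24 h, 5 of 7 lay below PBS, against 47.6% of all features, and 2, Dpp4 and Enpep, had groups apart, where 21.4% did. Beside these 24 h differences, myeloid genes lay below PBS for 8 of 9 with either strain, with a median of -0.47 for ATCC PTA 6475 and -0.35 for DSM 17938. Enterocyte genes lay below PBS for 9 of 13 with either strain (median -0.098 for ATCC PTA 6475 and -0.088 for DSM 17938). Crypt and proliferation genes did for 15 of 21 with ATCC PTA 6475 and 16 of 21 with DSM 17938. Enteroendocrine genes did for 8 of 9 with either strain. Paneth cell genes lay above PBS for 5 of 5 with DSM 17938 (median 0.61) and for 4 of 5 with ATCC PTA 6475 (median 0.22). Fibroblast genes lay above PBS for 7 of 10 with ATCC PTA 6475 and 8 of 10 with DSM 17938. Smooth muscle genes did for 5 of 8 with ATCC PTA 6475 and 7 of 8 with DSM 17938, and enteric nerve genes for 4 of 5 with either. Goblet cell genes lay below PBS for 4 of 10 with ATCC PTA 6475 and 7 of 10 with DSM 17938. Lymphocyte genes did for 3 of 8 with ATCC PTA 6475 and 6 of 8 with DSM 17938. The part of these cell types was not tested. Between strains at 4 h, 1 of 7, Lct, had groups apart, where 8.17% of all features did. For 24 h against 4 h, 1 of 7 had groups apart in PBS pups (Lct, where 9.25% of features did), 0 in DSM 17938 pups (5.82% of features) and 1 in ATCC PTA 6475 pups (Treh, 10.8% of features).

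The 4 comparisons of a strain with PBS share their PBS pups within a time, so that the counts are not independent of each other. With median scaling in place of quantile normalisation, the ATCC PTA 6475 difference from PBS had a median over all features of -0.16 at 24 h and -0.11 at 4 h. The median of the 7 hydrolases was then -0.40 at 24 h and -0.37 at 4 h for that strain.

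The next question was which hydrolases varied together from pup to pup. Correlations over the 18 pups were computed for all 21 pairs, by Pearson and Spearman with permutation tests and Benjamini-Hochberg adjustment over the 21. The permutations shuffled all 18 pups without regard to group or replicate number, so these p-values take account of neither. Dpp4 and Enpep had r = 0.75 and rho = 0.73 (adjusted permutation p = 0.00483 and 0.0187). Without the 2 pups farthest from the median of Dpp4, r was 0.62. Dpp4 and Anpep had r = 0.70 and rho = 0.67 (adjusted permutation p = 0.0132 and 0.0339). Without the 2 pups farthest from the median of Anpep, r was 0.78. For that pair the pups farthest from the median of Dpp4 were not left out. With each group's mean taken out, all 18 pups gave r = 0.81 for Dpp4 with Enpep and r = 0.75 for Dpp4 with Anpep.

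The relation was also read within the 6 pups of each replicate number, a grouping whose meaning the labels do not give. Dpp4 with Enpep had r = 0.91, 0.83 and -0.11 among replicates 1, 2 and 3, and Dpp4 with Anpep had r = 0.46, 0.80 and 0.02. Both r were lowest among replicates 3, and an r over 6 pups is imprecise. With both the group means and the replicate number taken out, Dpp4 with Enpep had r = 0.78 and Dpp4 with Anpep r = 0.65. On the same basis Lct had r = 0.53 with Anpep, 0.43 with Dpp4 and 0.094 with Enpep. Among replicates 1, 2 and 3, Lct with Anpep had r = -0.22, 0.55 and 0.87, and Lct with Dpp4 had r = -0.12, 0.53 and 0.43. Alpi with Enpep had r = 0.52 and rho = 0.63, of which only rho passed the adjusted threshold (adjusted permutation p = 0.171 and 0.0471). The 15 pairs that include Lct, Sis or Treh had r between -0.34 and 0.26, with a lowest adjusted permutation p of 0.604.

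Correlations this high were also found with other features. Of all other features, 1.23% were at least as highly correlated with Dpp4 as Enpep was, and 0.386% were as highly correlated with Enpep as Dpp4 was. For Anpep and Dpp4 the shares were 0.315% of features with Anpep and 2.42% with Dpp4.

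**Figure D4:**
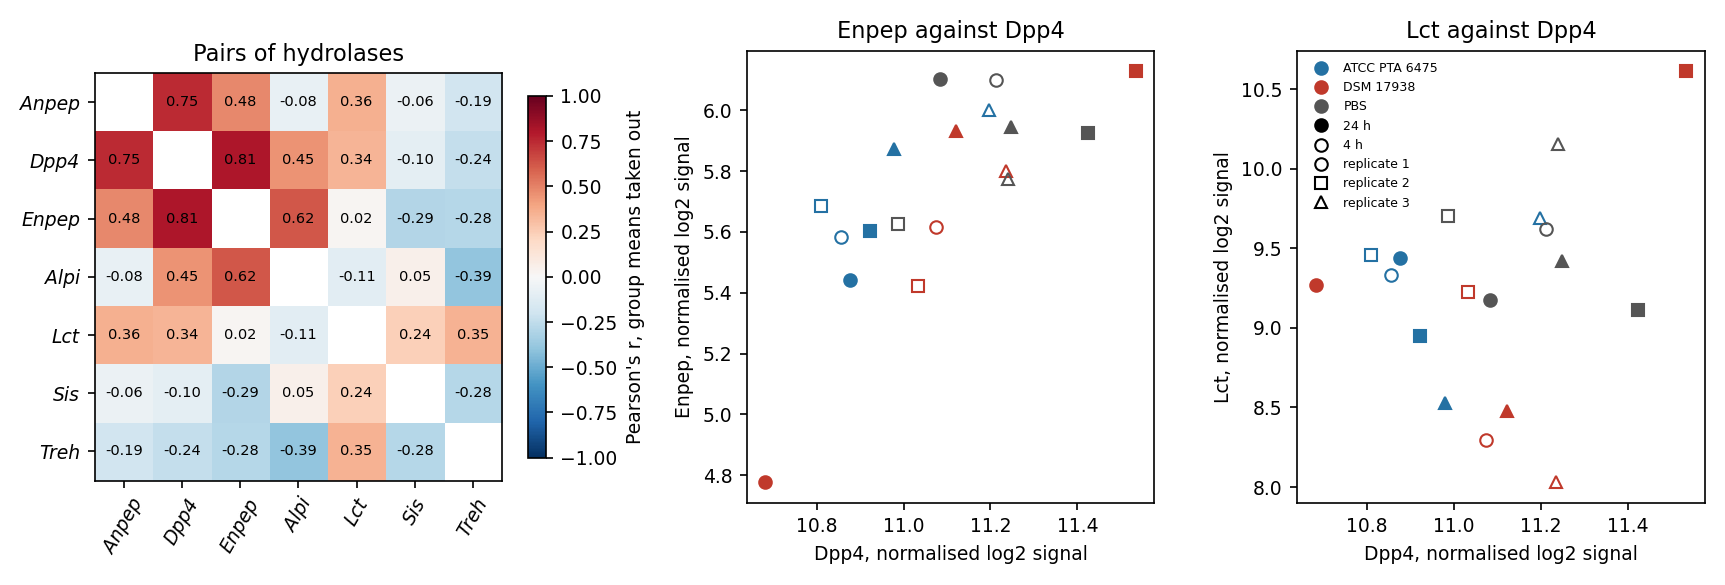
Left, Pearson's r of each pair of measured hydrolases over 18 pups after each group's mean was taken out; middle and right, Enpep and Lct against Dpp4 in log2 signal, 1 point per pup, filled at 24 h and open at 4 h. Before means were taken out, r with Dpp4 was 0.75 for Enpep and 0.25 for Lct.

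The genes whose levels over the 18 pups were most like each hydrolase were looked up among 12387 named genes, as a description. How high the best r of so many unrelated genes would be was not tested. A place among the genes most alike therefore does not show a relation. For Lct these were Paqr9 (r = 0.78), Anxa13 (r = 0.73), Apoc3 (r = 0.71), Prrx1 (r = 0.70) and Plcd4 (r = 0.70). Anxa13 encodes an annexin of the intestinal epithelium and Apoc3 an apolipoprotein of chylomicrons. With the mean of the 13 enterocyte genes, however, Lct had r = 0.05. Without the 2 pups farthest from the median of Lct, the r of the 5 genes most like it lay between 0.46 for Plcd4 and 0.70 for Paqr9.

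For Dpp4 the closest were Snx7 (r = 0.91), Hspa5 (r = 0.90), which encodes the chaperone BiP of the endoplasmic reticulum, and Srp14 (r = 0.90), a subunit of the signal recognition particle. For Anpep they were H3c8 (r = 0.85), Spry3 (r = 0.84) and Mrpl57 (r = 0.81), and for Enpep Tmem254a, Bag4 and Ptgr2 (r = 0.87 each). For Alpi they were Smcp (r = 0.84), Gnpda1 (r = 0.82) and Slc5a6 (r = 0.79), the last a vitamin transporter. For Sis they were Olfr1043 (r = 0.80), Prkaa1 (r = 0.71) and Dtx4 (r = 0.69), and for Treh Prpf31 (r = 0.77), Snora70 (r = 0.76) and Zgrf1 (r = 0.75).

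Against the mean level of marker lists, Lct had r = 0.05 with the 13 enterocyte genes, r = 0.14 with 19 genes of the suckling enterocyte and r = -0.0030 with 17 genes of the microvillus scaffold, and r = 0.23 with mean array signal. With the microvillus scaffold, Alpi had r = 0.80, Enpep 0.70, Dpp4 0.57, Anpep 0.25, Sis -0.060 and Treh -0.15. With the suckling enterocyte list, Enpep had r = 0.73, Alpi 0.64, Dpp4 0.63, Anpep 0.28, Sis -0.036 and Treh -0.079. All these points share the arrays and their normalisation.

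Other hydrolases of the same membrane were described as a group. Of 20 listed genes, 15 had a probe and 10 were measured. Cps1, a mitochondrial enzyme, and Clca4a, a chloride channel regulator, stand in the list too. By limma 0 of 10 passed the adjusted threshold in any comparison, and at an unadjusted p under 0.05 the count against PBS was 2 of 10 for ATCC PTA 6475 at 24 h, and 0 of 10 for that strain at 4 h and for DSM 17938 at either time. For ATCC PTA 6475 at 24 h, 15.1% of all features had such a p. The 2 genes were Naaladl1, an aminopeptidase-type enzyme, at -0.75 with a standard error of 0.27, and Asah2, the neutral ceramidase of the brush border, at 0.54 with a standard error of 0.21. Naaladl1 also stood lower with DSM 17938 at 4 h, at -0.55, and Mep1b, a meprin subunit, at -0.40 with ATCC PTA 6475 at 4 h.

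Genes of the microvillus scaffold, which hold up the membrane that carries the hydrolases, were measured for 17 of 20. With ATCC PTA 6475 at 4 h, 2 of 17 had an unadjusted p under 0.05, where 3.36% of all features did. They were Myo7b, a myosin of the links between microvillus tips, at -0.58 with a standard error of 0.18, and Myo1d, a membrane-bound myosin, at -0.59 with a standard error of 0.22. With DSM 17938 at 4 h, 12 of 17 lay below PBS, against 48.7% of all features, and 0 had such a p.

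Of 19 listed regulators of these enzymes, 13 were measured, and Gata4 was not detected. With ATCC PTA 6475 at 24 h, 1 of 13 stood above and 1 below PBS at an unadjusted p under 0.05 by limma, where 15.1% of all features had such a p. With DSM 17938 the count was 1 of 13 at 24 h, where 5.01% of features did, and 1 of 13 at 4 h, where 3.34% did. With ATCC PTA 6475 at 4 h it was 0 of 13, where 3.36% did. At 24 h Prdm1, the repressor known in mice for holding back adult-type enterocyte genes until weaning, stood 0.48 above PBS with ATCC PTA 6475 and 0.50 above PBS with DSM 17938, with a standard error of 0.21 in both. Klf4 stood below PBS with ATCC PTA 6475, at -0.36 with a standard error of 0.16. At 4 h Maf stood below PBS with DSM 17938, at -0.41 with a standard error of 0.19. Cdx2 differed from PBS by -0.16 with ATCC PTA 6475 at 4 h. The adjusted p of each of these was at least 0.302 by limma.

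The suckling enterocyte list had 19 of 20 genes measured. With DSM 17938 at 4 h it held 16 genes below PBS, against 48.7% of all features, and its median was -0.19 against 0.0060. With ATCC PTA 6475 at 4 h it held 15 below PBS, against 49.8% of all features, and its median was -0.11 against 0.00057. In it Ass1, argininosuccinate synthase, stood at -0.46 with DSM 17938 at 4 h, and Asl, the next enzyme of arginine synthesis, at -1.31 with ATCC PTA 6475 and -0.74 with DSM 17938 at 24 h. The adult-type list, which itself holds Sis and Treh and also Reg3b and Reg3g, had 11 of 14 genes measured. With DSM 17938 at 4 h, 8 of 11 lay above PBS and 3 below, where 48.7% of all features lay below. In that comparison 1 of 11, Reg3g, had an unadjusted p under 0.05 by limma, where 3.34% of features did. It stood at 2.15 with a standard error of 0.80. With ATCC PTA 6475 at 24 h, 9 of 11 lay below PBS, against 47.6% of all features. The adult-type gene with the lowest p, Ada, adenosine deaminase, stood at -0.65 with ATCC PTA 6475 and -0.44 with DSM 17938 at 24 h. By limma 0 genes of these lists passed the adjusted threshold.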

How the data were processed

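Bead signals of 18 arrays were taken as deposited by the authors: linear intensity values per probe that, per the file headers, carry no normalisation between arrays. Beside each signal the authors deposited a detection fraction that rises with it; 1 minus this was taken as the detection p-value. A log2 value table deposited by the authors served as an alternative only. GenomeStudio is the program named in the submitters' processing notes.

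Signals were background-corrected from the detection values (offset 16), quantile-normalised and put on log2 in limma 3.58.1 under R 4.3.3. Probes with a detection p under 0.05 on at least 3 arrays were kept, 24506 of 45281. The brightest probe stood for its gene, giving 12804 genes and 4031 unnamed probes, 16835 features. Symbols came from the platform annotation, updated through gene IDs. A group-means model was fitted to all 18 arrays, with 12 residual and 4.27 prior degrees of freedom, with Benjamini-Hochberg adjustment in each of 14 comparisons at 0.05. The fit was tested on simulated data. Correlations used 100000 permutations. Between 2 groups, the standard error had a median of 0.182 over all features, and the number of arrays limits the precision.

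The members and lists were chosen with earlier results of these data known. Named genes were the 9 hydrolases, the 5 genes most like Lct and the 3 most like each other hydrolase, and up to 4 genes per list with the smallest p in a comparison. Alternatives were median scaling, an offset of 50, the authors' table, other probes, array weights, a replicate block, leaving out each pup, fitting only the arrays compared, and a detection filter that was stricter or absent.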

Additional observations from a re-analysis of the deposited data

How the results depend on the processing

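Under all settings run, 0 hydrolases passed an adjusted p of 0.05. Single values were followed for 43 of 98 differences of single hydrolases. These were each strain against PBS at each time, all those of Lct, and others with an unadjusted p under 0.05 by limma. The lowest adjusted p among the 43 was 0.291 by limma. Of the 43, some of them picked for a low p, 24 kept their sign under every setting and with any pup left out. Among 345 values under other settings 11 turned sign. With median scaling these were Alpi for ATCC PTA 6475 against PBS at 24 h, -0.31, Treh in that comparison, -0.012, Alpi for DSM 17938 at 24 h, -0.055, and the Lct change between the times for ATCC PTA 6475, -0.063. With the deposited table Alpi for DSM 17938 at 24 h was -0.00333, and with array weights Lct in that comparison was -0.18. The other Sis probe gave 0.050 and 0.015 for ATCC PTA 6475 at 24 h and 4 h and -0.021 for DSM 17938 at 24 h, and the other Dpp4 probe 0.034 and 0.076 for ATCC PTA 6475 and DSM 17938 at 4 h. Neither of these probes was detected on any array. The cause of the sign changes was not tested.

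Over all features, 0 were called in each comparison with the settings of the report. The labels' replicate numbers paired the pups in part and not throughout. Correlations of deviations ran between -0.047 and 0.51 for same-numbered pups and between -0.38 and 0.19 for pups of different numbers. Same-numbered pups correlated above 0.1 in every pair for 3 of 9 pairs of groups. In each pair of groups, 1 to 3 of 3 pups correlated best with the pup of their own number. With the replicate block, 247 features (1.47%) were called for ATCC PTA 6475 at 24 h, 39 for both strains at 24 h (all against PBS) and 1 for 24 h against 4 h over the treatments, with 0 hydrolases among them. Array weights gave 1 for 24 h against 4 h in ATCC PTA 6475 pups and 1 over the treatments. With only the arrays compared, 6 were called for DSM 17938 against PBS at 24 h, 1 between strains at 24 h and 6 for 24 h against 4 h in PBS pups.

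With 1 pup left out, 0 to 10 features were called for DSM 17938 against PBS at 4 h and 0 to 8 between strains at 4 h, the highest without replicate 1 of the DSM 17938 group. The other counts were 0 to 3 for both strains at 24 h and for the times in DSM 17938 pups, 0 to 2 for DSM 17938 at 24 h, for the times in ATCC PTA 6475 pups and over the treatments, and 0 to 1 for both strains at 4 h, ATCC PTA 6475 at 24 h and the times in PBS pups. Of 312 single values with a pup left out, 35 turned sign. The lowest and highest values were as follows. For DSM 17938 against PBS at 24 h, Lct had -0.36 and 0.71, Alpi -0.14 and 0.23, Anpep -0.079 and 0.31, Dpp4 -0.35 and 0.077, and Enpep -0.64 and 0.038. For DSM 17938 at 4 h, Anpep had -0.12 and 0.048 and Dpp4 -0.11 and 0.014. For ATCC PTA 6475 at 24 h, Alpi had -0.11 and 0.26 and Anpep -0.27 and 0.081. For ATCC PTA 6475 at 4 h, Enpep had -0.20 and 0.056 and Sis -0.20 and 0.20. For Lct, both strains at 24 h had -0.31 and 0.22, strain against strain at 24 h -0.97 and 0.10, the times over the treatments -0.25 and 0.10, and the change between the times for ATCC PTA 6475 -0.16 and 0.30. With 3 pups a group the precision is limited throughout, and for Treh and Enpep 1 pup each lay close to the limit of detection.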
